A study of Homo sapiens with 53 samples.

Results

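The MYC and PVT1 locus was taken as the peaks that overlap chromosome 8, 128700000 to 129120000 in the human genome build hg19, a window of 420 kb. MYC was placed at 128748315 to 128753680 and PVT1 at 128806000 to 129113500, the latter with rounded ends. Both genes are read from the lower towards the higher coordinate. The window held 177 of 706206 peaks in 10 lists. Joined where they overlapped between lists, they formed 104 sites, of which 59 were named by a single list. The share of such sites over the whole lists was not taken, so this count says nothing particular about the locus. Members were chosen by position and not by any measured value.

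The peaks come from chromatin immunoprecipitation and sequencing (ChIP-seq) in HEK293T, a human embryonic kidney line, after 72 h in DMSO, the solvent, or in the compound BPK-25 at 30 µM. CTCF and MBD3 were precipitated from the parental cells with antibodies against those proteins. TET1, TET2 and TET3 were each precipitated with an antibody against the Flag tag from an edited line derived from HEK293T that carries the tagged protein, and the number of clones behind each line is not given in the sources used here. The labels give 3 immunoprecipitates per target and treatment, except TET2 under DMSO with 2, and 1 deposited list for each group. The values below therefore carry no spread between replicates, and no test between treatments was possible.

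MYC encodes a transcription factor that drives growth and division genes, and its level is set by distant enhancers on both sides of the gene. PVT1 is a long non-coding RNA gene downstream of MYC whose promoter competes with that of MYC for the same enhancers and can act as a boundary between them. CTCF is a zinc-finger protein that anchors chromatin loops and insulators, and a CTCF site just upstream of the MYC promoter is known as a docking point for such loops. MBD3 is a subunit of NuRD, a remodelling and deacetylase complex. The TET proteins oxidise 5-methylcytosine. In the RefSeq annotation of GRCh38.p14 the window's neighbourhood also holds the long non-coding gene CASC11 before MYC, and LINC02912 and the microRNA genes MIR1204, MIR1205, MIR1206 and MIR1207 inside PVT1. Exons were not placed on hg19 here.

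Strength is given in 2 ways. Fold enrichment is the authors' value at a summit, the ratio of the pileup (the number of fragments that cover the position) to the local background. The pileup divided by the genome background, the lowest local background of a list, allows for the depth of that list. It was 3.68 fragments in the DMSO CTCF list, 2.58 in the BPK-25 CTCF list, 3.21 and 2.57 in the MBD3 lists, and between 1.05 and 1.85 in the TET lists. Intervals are exact 95% Poisson or binomial intervals that cover counting error only.

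CTCF had its strongest sites of the window at MYC. Under DMSO there were 16 CTCF peaks, and 7 of them had a fold enrichment of 10 or more, against 53.2% of all DMSO CTCF peaks. Of those 7, 4 lay between 10.2 kb before and 1.8 kb after the MYC start, and the other 3 lay inside PVT1. Under BPK-25 there were 64 CTCF peaks in the window and 0 of them reached a fold enrichment of 10, which 0.942% of the whole list did. Their values lay between 2.27 and 6.78. Of the 64 BPK-25 MBD3 peaks, 0 reached 10, against 0.932% of that list. The map of peaks by list shows tall, sparse DMSO CTCF peaks and low, dense BPK-25 ones.

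**Figure D1:**
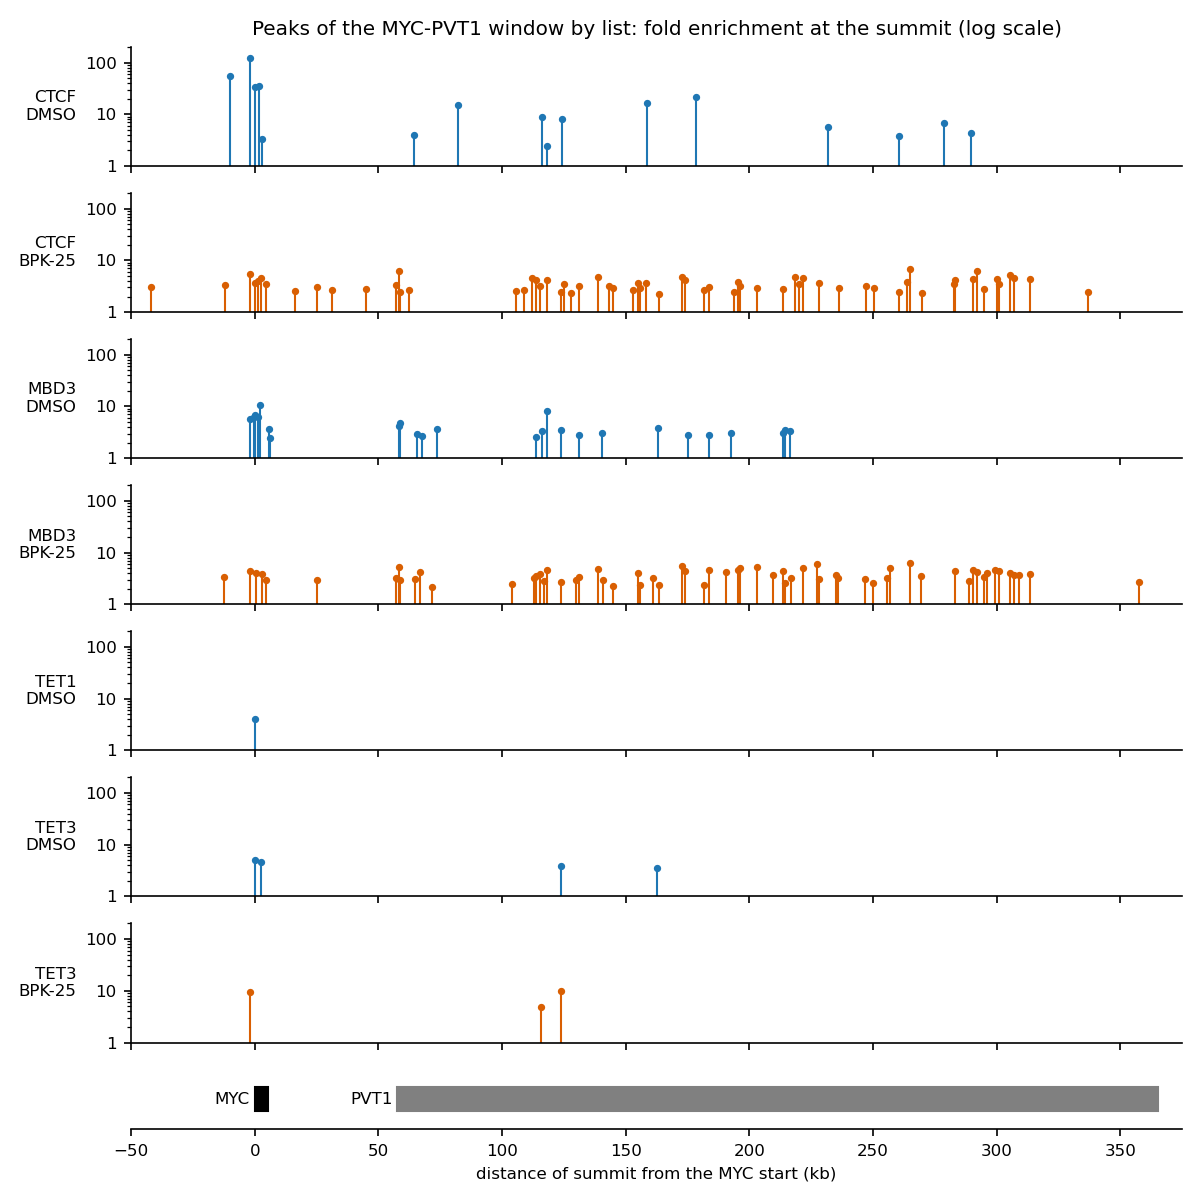
Fold enrichment (log axis, no unit) of each peak against the distance of its summit from the MYC start in kb, 1 row per list with at least 1 peak, with the extents of MYC and PVT1 at the bottom; blue is DMSO and orange BPK-25. The 16 DMSO CTCF peaks reach 120.0, whereas the 64 BPK-25 CTCF peaks stay at or below 6.78.

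The strongest site lay upstream of MYC, at 128746089 to 128746649, with its summit at -1955 bp from the MYC start. Its DMSO CTCF summit had a fold enrichment of 120.0 and a pileup of 1351 fragments, 367 times the genome background (interval 348 to 387), and ranked 3140 of 99587 peaks by q-value. Under BPK-25 a CTCF peak remained there with a fold enrichment of 5.58 and 33 fragments, 12.8 times the genome background (8.81 to 18.0). The BPK-25 value relative to genome background was 0.0349 of the DMSO value (0.0239 to 0.0492). The site thus stayed in the list at a much lower height.

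MBD3 lay on the same spot in both treatments. The DMSO MBD3 peak had a fold enrichment of 5.68 and 56 fragments, and the BPK-25 peak 4.41 and 30 fragments. The ratio of the treatments relative to genome background was 0.670, with an interval of 0.415 to 1.06 that includes 1. TET3 was listed there under BPK-25 alone, with a fold enrichment of 9.63 and 26 fragments, 15.8 times the genome background (10.3 to 23.2), and ranked 850 of 13360 peaks. The summits of the 5 lists that name this site fell within 44 bp of each other.

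A site 10.2 kb before MYC was listed under DMSO alone. At 128737912 to 128738528 the DMSO CTCF summit had a fold enrichment of 55.3 and 516 fragments, 140.2 times the genome background (128 to 153). No other list of either treatment named it. The nearest BPK-25 CTCF peak lay 1358 bp away with a fold enrichment of 3.35. The lowest pileup in the whole BPK-25 CTCF list was 8 fragments, 3.10 times its genome background, and no value below that can be read from the list.

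The start of MYC held 1 of the 2 sites of the window named by 6 lists, at 128748263 to 128748878. DMSO CTCF had a fold enrichment of 33.2 there, with its summit 199 bp after the start and 246 fragments. BPK-25 CTCF had 3.74 and 18 fragments, 0.105 of the DMSO value relative to genome background (0.0609 to 0.169). For MBD3 the fold enrichment was 6.95 under DMSO and 3.99 under BPK-25, and the ratio relative to genome background was 0.637 (0.386 to 1.03). The CTCF interval lies far below 1. The MBD3 interval includes 1, but by fold enrichment the MBD3 ratio was 0.574 (0.347 to 0.929). TET1 under DMSO had its only peak of the window here, with a fold enrichment of 4.09 and 16 fragments. TET3 under DMSO had 5.15 and 15 fragments. Neither was listed under BPK-25, where the lowest pileups called were 10 fragments for TET1 and 8 for TET3. The whole BPK-25 TET1 list held only 447 peaks, against 5951 under DMSO, so the absence of TET1 is not particular to this site.

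Inside MYC, a further site spanned 128749255 to 128751358. The DMSO CTCF peak at 128749585 to 128750845 had a fold enrichment of 34.8 and 231 fragments at a summit 1784 bp after the start. The strongest BPK-25 CTCF peak by q-value that overlaps it had 4.47 and 24 fragments, with its summit 685 bp further on. This was 0.148 of the DMSO value relative to genome background (0.0932 to 0.226). A second overlapping BPK-25 CTCF peak, at 128749554 to 128749729, had 3.94 and 25 fragments at a summit 1334 bp after the start. Neither covered the DMSO summit, so the ratio sets heights at different positions side by side. The DMSO MBD3 peak at 128749960 to 128751358 was the strongest MBD3 peak of the window and its only one with a fold enrichment of 10 or more, a mark that 6.32% of all DMSO MBD3 peaks reached. It had a value of 10.9 and 65 fragments, and its 3 summits had fold enrichments of 10.5, 10.9 and 8.10. Under BPK-25 the MBD3 value was 3.85 with 28 fragments, a ratio of 0.539 relative to genome background (0.333 to 0.852), again between summits 691 bp apart. TET3 was listed there under DMSO alone, at a fold enrichment of 4.61 with 15 fragments. A weak DMSO CTCF peak at 128751029 to 128751229 had a fold enrichment of 3.35, and the overlapping BPK-25 peak 4.47, with a ratio of 1.32 relative to genome background (0.725 to 2.39). This was the same BPK-25 peak, at 128750457 to 128751232, as in the ratio of 0.148 above. Its strongest summit lay 331 bp from the DMSO one. Its nearer summit, at 128751107, had a lower fold enrichment of 3.02. Relative to genome background that summit was at 8.54, against 7.06 for the DMSO peak.

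MBD3 also covered ground around MYC that CTCF did not under DMSO. The MBD3 peak at 128747114 to 128748049, between the upstream CTCF site and the MYC start, had 3 summits with fold enrichments of 4.0, 4.35 and 6.23, the last at -408 bp from the start. It was named by no other list, and the nearest BPK-25 MBD3 peak lay 261 bp away. Past the end of MYC, DMSO MBD3 peaks at 128753923 and 128754280 had fold enrichments of 3.62 and 2.47 and were not listed under BPK-25. In the other direction, BPK-25 CTCF and MBD3 shared a site at 128752715 to 128752997, still within MYC, with 3.50 and 2.93 and no DMSO peak.

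**Figure D2:**
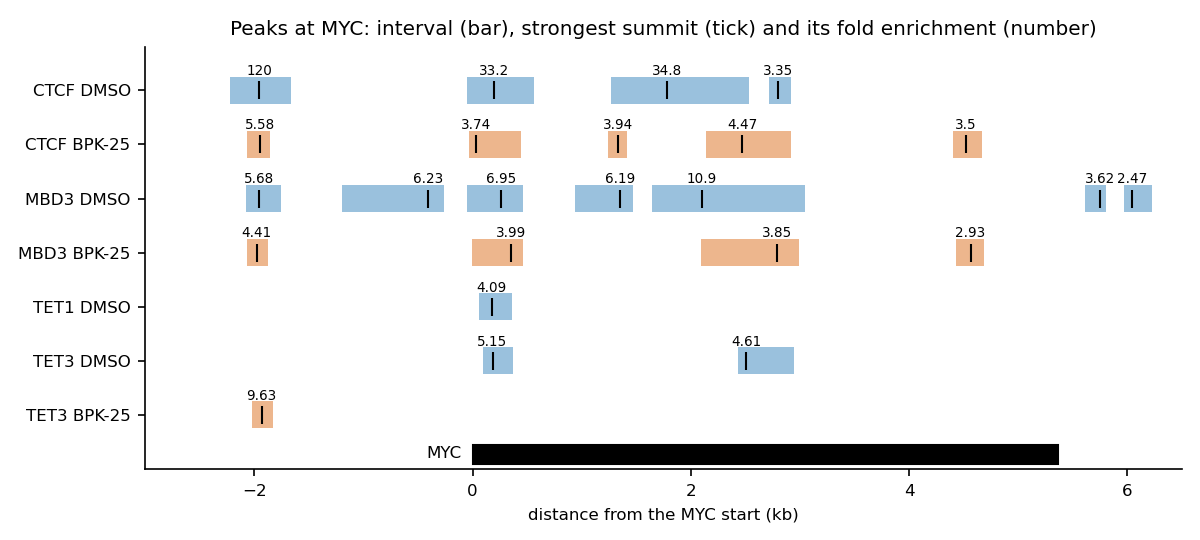
Peaks of 7 lists around MYC against the distance from its start in kb: bars are peak intervals, black ticks the summit of highest -log10 q, and numbers its fold enrichment; blue is DMSO and orange BPK-25. CTCF is 120.0 under DMSO and 5.58 under BPK-25 at the upstream site, where TET3 is listed under BPK-25 alone, and TET1 and TET3 are listed at the MYC start under DMSO alone.

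Between MYC and PVT1, a stretch of 52.3 kb, there were 0 DMSO CTCF peaks. The DMSO MBD3 list had the 2 peaks just past MYC named above. BPK-25 added 5 CTCF and 2 MBD3 peaks there, with CTCF fold enrichments of at most 3.28. The last of them, at 128805527 to 128805793, lay just before the start taken for PVT1 and was named by both BPK-25 lists, with 3.28 for CTCF and 3.24 for MBD3.

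The start taken for PVT1 carried MBD3 under DMSO but no DMSO CTCF peak. That start is a rounded coordinate, so distances from it are approximate. At 128805999 to 128806631 the MBD3 fold enrichment was 4.29 with 42 fragments under DMSO and 5.32 with 23 fragments under BPK-25. Relative to genome background the ratio was 0.685 (0.393 to 1.17), so the order of the 2 treatments depended on whether local or genome background was used. CTCF was listed there under BPK-25 alone, with a fold enrichment of 6.11 and 30 fragments, 11.6 times the genome background (7.85 to 16.6). This was the second strongest BPK-25 CTCF peak of the window by q-value. A second MBD3 peak 0.9 kb past the start taken for PVT1, at 128806819 to 128807084, had 4.76 under DMSO and 2.93 under BPK-25. Its ratio was 0.469 (0.220 to 0.936), and a BPK-25 CTCF peak of 2.48 overlapped it. By fold enrichment that second MBD3 ratio was 0.616 and its interval included 1.

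Within PVT1 there were 11 DMSO CTCF peaks, or 0.358 per 10 kb, close to the 33.3 per Mb of that list over the genome. Their median fold enrichment was 6.86, against 11.3 over the list. The strongest was at 128926600 to 128926979, with a fold enrichment of 21.3 and 198 fragments. Those at 128906924 to 128907229 and 128830430 to 128830807 had 16.4 with 131 fragments and 15.2 with 199 fragments. None of the 3 overlapped a BPK-25 CTCF peak or an MBD3 peak of either treatment. The distance to the nearest BPK-25 CTCF peak was 2982 bp, 394 bp and 19648 bp. A run of weaker DMSO CTCF peaks at 128812501, 128980080, 129026996 and 129037988 had fold enrichments of 3.90, 5.60, 6.86 and 4.41 and was likewise without a BPK-25 or MBD3 overlap. The DMSO CTCF peak at 129008947, with 3.81, overlapped a BPK-25 CTCF peak, with 2.51, and MBD3 was not listed there. Its ratio relative to genome background was 0.929 (0.424 to 1.96).

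A cluster of sites between 57.9 and 66.5 kb past the start taken for PVT1 combined several targets. The one at 128871972 to 128872635 was the other site named by 6 lists. Its fold enrichments under DMSO were 8.09 for CTCF, 3.50 for MBD3 and 3.90 for TET3, and under BPK-25 2.43, 2.66 and 10.1. CTCF there went from 85 to 25 fragments, with a ratio relative to genome background of 0.420 (0.258 to 0.663), while TET3 went from 23 to 42 fragments with a ratio of 1.88 (1.11 to 3.28). These 2 intervals lie on opposite sides of 1, as counts of pooled libraries. The MBD3 ratio was 1.47 (0.811 to 2.68) relative to genome background and 0.758 (0.419 to 1.38) by fold enrichment, so its direction turned with the scale and both intervals include 1. This was the 1 TET3 peak of the window present in both treatments, and its BPK-25 peak ranked 384 of 13360.

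At 128866190 to 128867007, somewhat nearer to MYC, MBD3 had its second strongest DMSO peak of the window, with 8.20 and 72 fragments, and its strongest BPK-25 peak by q-value, with 4.58 and 45 fragments. The ratio relative to genome background was 0.782 (0.527 to 1.15), whereas by fold enrichment it was 0.559 (0.376 to 0.823), with a local background of 2.46 times the genome value in the DMSO list and 3.52 times in the BPK-25 list. CTCF went the other way at this site, from 2.40 and 26 fragments under DMSO to 4.12 and 43 fragments under BPK-25. Its ratio of 2.36 (1.42 to 4.01) was the one CTCF ratio of the window whose interval lay above 1. The BPK-25 CTCF and MBD3 pileups there, 16.7 and 17.5 times the genome background, were close to each other.

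At 128863733 to 128864608 a DMSO CTCF peak of 8.87 with 116 fragments overlapped a DMSO MBD3 peak of 3.40. BPK-25 peaks of CTCF (3.13), MBD3 (3.93) and TET3 (4.83, with 14 fragments) lay at the other end of the same site, and the BPK-25 CTCF peak was 440 bp from the DMSO one. TET3 under DMSO had 1 further peak, the weakest of its 4, at 128910983 to 128911296 with 3.49 and 10 fragments, on a DMSO MBD3 peak of 3.81.

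Most of the BPK-25 peaks of the window were spread over PVT1, which makes up 307.5 of its 420 kb. PVT1 held 52 of the 64 BPK-25 CTCF peaks and 57 of the 64 MBD3 peaks, against 11 of 16 and 18 of 25 under DMSO. The stretch of 200 kb from 128850000 to 129049999 was the densest, with 13, 12, 9 and 11 CTCF and 12, 11, 12 and 12 MBD3 peaks in successive steps of 50 kb. The DMSO lists had 3, 2, 1 and 3 CTCF and 6, 4, 3 and 0 MBD3 peaks in the same steps. Of the 104 sites, 71 were in BPK-25 lists only, or 68.3% (58.4 to 77.1), against 63.1% of the 385979 sites joined in the same way over the whole lists. A further 18 were in DMSO lists only and 15 in both, or 17.3% and 14.4%, against 19.1% and 17.7%. The BPK-25 lists of CTCF and MBD3 are the longer ones over the whole genome too.

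BPK-25 CTCF and MBD3 were close in height at the places of the window that both lists named. The 2 lists shared 29 sites that no other list named, with median fold enrichments of 3.50 for CTCF (range 2.27 to 6.78) and 3.91 for MBD3 (2.31 to 6.27). A further 21 sites were in the BPK-25 CTCF list alone and 21 in the BPK-25 MBD3 list alone. These counts of sites were not set against the whole lists. The strongest BPK-25 CTCF peak by fold enrichment, at 129013343 to 129013590, had 6.78 with 25 fragments, and MBD3 had 6.27 with 23 fragments and a summit 1 bp away. The strongest by q-value, at 129040247 to 129040586, had 6.30 for CTCF and 4.20 for MBD3. At 128969937 to 128970321 the values were 4.50 and 5.13, and at 128951493 to 128951910 they were 2.95 and 5.26. MBD3 alone was listed at 128975422 to 128975617, with 5.98 and 32 fragments.

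At the 41 BPK-25 CTCF peaks that overlapped a BPK-25 MBD3 peak, the CTCF pileup relative to genome background was a median of 0.937 times that of MBD3 (quartiles 0.812 and 1.20, range 0.605 to 1.63). The median distance between summits was 30 bp, and 34 of the 41 lay within 100 bp. At the 7 DMSO CTCF peaks that overlapped a DMSO MBD3 peak, the median of the same ratio was 3.10. It ranged from 0.315 at 128866409 to 21.0 at the upstream MYC site. For the parental cells the labels name a single set of inputs in each treatment, so both lists would share it as their control. The part of the shared input in the likeness was not tested. These ratios and distances were not taken over the whole lists, so the likeness cannot be called particular to the locus. Only places named by both lists enter, and the low heights of the BPK-25 peaks leave little room for unlike values.

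**Figure D3:**
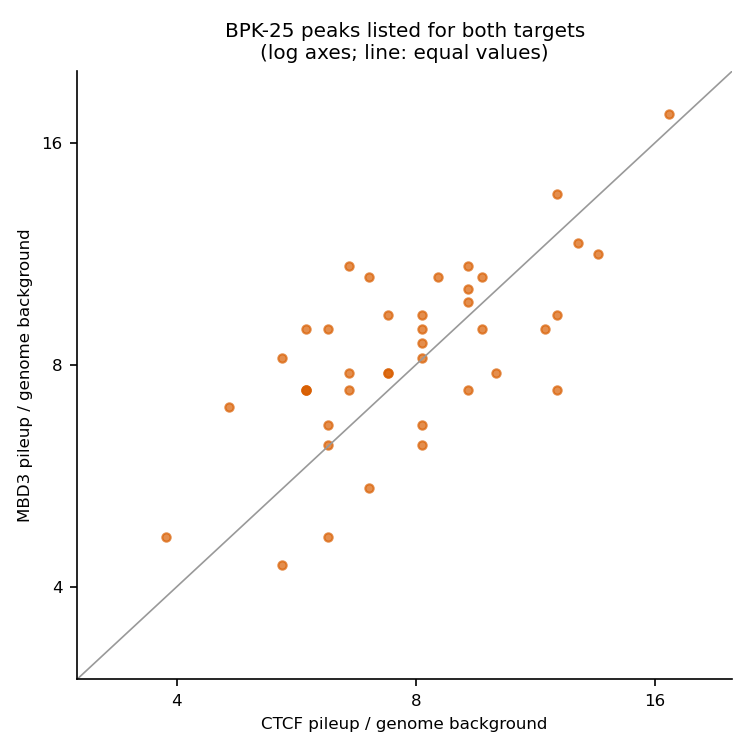
Pileup divided by genome background (no unit, log axes) for MBD3 against CTCF at the 41 places in the window where a BPK-25 CTCF peak overlaps a BPK-25 MBD3 peak; each point is 1 CTCF peak with the MBD3 peak of highest -log10 q on it. The points lie around the line of equal values, with ratios of CTCF to MBD3 between 0.605 and 1.63.

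The shares of peaks kept and new did not differ detectably from those of the whole lists at these numbers of peaks. Of the 16 DMSO CTCF peaks, 7 overlapped a BPK-25 CTCF peak, or 43.8% (19.8 to 70.1), against 39.2% of all DMSO CTCF peaks. For MBD3, 14 of 25 were kept, or 56.0% (34.9 to 75.6), against 61.4%. New peaks made up 57 of 64 for CTCF, or 89.1% (78.8 to 95.5), against 83.3%, and 50 of 64 for MBD3, or 78.1% (66.0 to 87.5), against 78.2%. Each interval includes the value of its list. Neighbouring peaks may not be independent, which the intervals do not allow for.

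MBD3 overlapped 7 of the 16 DMSO CTCF peaks, or 43.8% (19.8 to 70.1), against 36.9% of the list, and 41 of the 64 BPK-25 CTCF peaks, or 64.1% (51.1 to 75.7), against 69.0%. Seen from MBD3, CTCF overlapped 7 of 25 DMSO peaks, or 28.0% (12.1 to 49.4), against 43.3%, and 41 of 64 BPK-25 peaks, against 69.1%. Across treatments, 6 of the 16 DMSO CTCF peaks lay under a BPK-25 MBD3 peak, against 40.2% of the list, and 13 of the 25 DMSO MBD3 peaks under a BPK-25 CTCF peak, against 60.3%. Of the 7 DMSO CTCF peaks with MBD3, 6 were kept, and of the 9 without it, 1 was. Over the whole list 76.8% and 17.3% were kept. TET peaks lay on 6 sites. All 6 also held DMSO MBD3, against 70.9% of the 23396 TET sites of the whole lists, and 5 held DMSO CTCF, against 60.02%, although at 128863733 to 128864608 the TET3 and DMSO CTCF peaks themselves did not overlap. All 4 DMSO TET3 peaks overlapped a DMSO MBD3 peak, which 82.6% of the list did, and 3 overlapped a DMSO CTCF peak, against 58.1%. Of the 3 BPK-25 TET3 peaks, all 3 overlapped a BPK-25 CTCF and a BPK-25 MBD3 peak, against 42.5% and 44.8%, and 2 overlapped a DMSO CTCF peak, against 56.8%. The 1 TET1 peak overlapped DMSO MBD3 and DMSO CTCF, against 83.2% and 67.6% of its list. A fold enrichment of 10 or more was reached by 0 of the 4 DMSO TET3 peaks (2.14% of the list) and 1 of the 3 BPK-25 ones (4.07%). TET3 kept 1 of 4 peaks (31.9% of the list was kept) and had 2 new of 3 (65.8%). TET1 kept 0 of 1 (4.59%). TET2 had 0 peaks in the window in either treatment, and its lists held only 0.438 and 0.214 peaks per Mb of the genome.

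**Figure D4:**
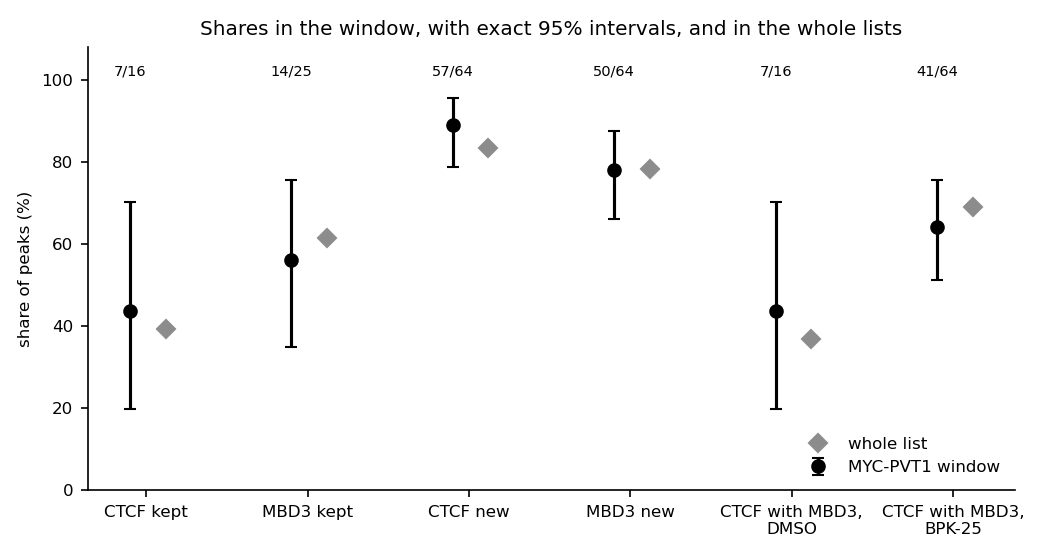
Share of peaks (%) in the MYC-PVT1 window (black, with exact 95% binomial intervals and the counts above) and in the whole list (grey): DMSO peaks kept under BPK-25, BPK-25 peaks new against DMSO, and CTCF peaks that overlap MBD3. All 6 intervals include the value of the whole list.

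At the 7 CTCF peaks kept, the median ratio of BPK-25 to DMSO relative to genome background was 0.420, and the range was 0.0349 to 2.36. The BPK-25 peak at 128750457 to 128751232 enters the ratios of both DMSO peaks that it overlaps. At all 39068 kept CTCF peaks the median was 0.546 (quartiles 0.0940 and 1.32). In the window the ratio was below 1 at 5 of the 7, with the interval below 1 at 4. The 3 lowest ratios were those of the upstream site, the start and the body of MYC. These had the highest DMSO values of the 7, at 367, 66.8 and 62.7 times the genome background. Peaks not kept have no ratio and do not enter this order. Among them were the peak 10.2 kb before MYC, at 140 times, and 3 in PVT1, at 54.1, 53.8 and 35.6 times. Where in the window CTCF fell most can therefore not be read from the ratios. At the 14 kept MBD3 peaks the median ratio was 0.898 (range 0.469 to 2.42), against 1.22 (0.770 and 2.03) at all 50536. It was below 1 at 7 of the 14, and the interval was below 1 at 2 and above 1 at 1. That last one was 128861899 to 128862342 in PVT1, with 15 fragments under DMSO and 29 under BPK-25, and its interval included 1 by fold enrichment. For both targets, the counts of ratios and intervals on either side of 1 were not taken over all kept peaks. They therefore say nothing particular about the locus.

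**Figure D5:**
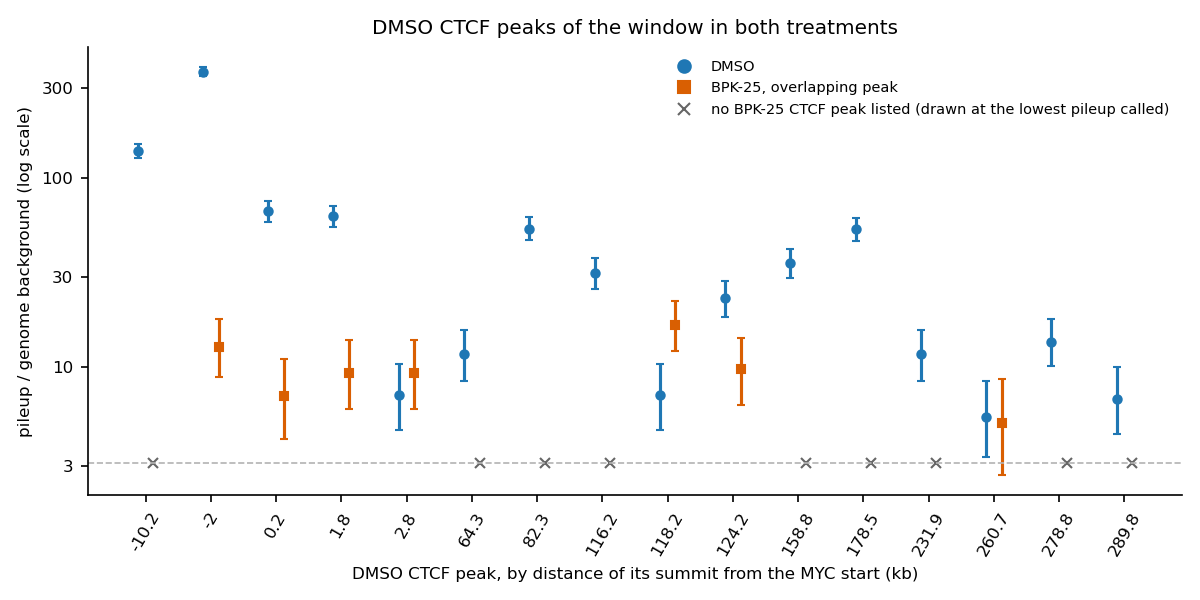
Pileup divided by genome background (log axis, no unit) at the 16 DMSO CTCF peaks of the window, ordered by distance from the MYC start in kb: blue circles are DMSO, orange squares the overlapping BPK-25 CTCF peak, bars exact 95% Poisson intervals, and crosses mark the 9 peaks with no BPK-25 CTCF peak, drawn at the lowest pileup of that list (3.10). DMSO values at MYC reach 367, and the 7 BPK-25 values lie between 5.04 and 16.7. The BPK-25 peak at 128750457 to 128751232 is drawn at both 1.8 and 2.8 kb.

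With all peaks counted, the locus had more peaks per Mb than the genome in both MBD3 lists and the BPK-25 CTCF list. For DMSO CTCF it was near the genome. The window had 152 BPK-25 CTCF and 152 BPK-25 MBD3 peaks per Mb, against 82.7 and 82.0 over chromosomes 1 to 22 and X, and 38.1 and 59.5 under DMSO, against 33.3 and 27.7. Over 6816 tiles of the same width the BPK-25 CTCF list had a median of 17 peaks (quartiles 9 and 41), and MBD3 16 (8 and 41.25). The DMSO medians were 12 (7 and 19) for CTCF and 7 (2 and 15) for MBD3. The 16 DMSO CTCF peaks of the window lay within the quartiles of the tiles. Its 25 DMSO MBD3 peaks and the 64 peaks of each BPK-25 list lay above the upper quartile. The ratio of BPK-25 to DMSO peak numbers depended on the threshold. With all peaks it was 4.0 for CTCF and 2.56 for MBD3. With peaks whose -log10 q reached 10, the direction reversed, to 0.583 for CTCF and 0.750 for MBD3. That mark was reached by 12 DMSO and 7 BPK-25 CTCF peaks of the window, against 81.0% and 19.4% of the lists, and by 8 DMSO and 6 BPK-25 MBD3 peaks, against 31.9% and 20.9%. For BPK-25 MBD3 the 6 of 64 came to 9.38% (3.52 to 19.3), below the share of the list, and for the other 3 lists the interval included the share of the list. At that mark the window had 16.7 BPK-25 CTCF and 14.3 BPK-25 MBD3 peaks per Mb, against 16.0 and 17.1 over the genome, and 28.6 and 19.0 under DMSO, against 27.0 and 8.83. The excess of the window under BPK-25 was thus nearly gone for CTCF and not seen for MBD3. These BPK-25 densities rest on 7 and 6 peaks and carry no interval, so no deficit is shown.

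The local background had a median of 2.09 times the genome value at the DMSO CTCF peaks of the window, against 1.43 over the list and 1.34 on chromosome 8. It was 1.77 against 1.58 for BPK-25 CTCF, 1.68 against 1.58 for DMSO MBD3 and 1.73 against 1.56 for BPK-25 MBD3. The highest value in the window was 3.76.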

How the data were processed

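ChIP-seq peak lists of 5 targets in 2 treatments were used as deposited, 1 per target and treatment. The labels name 53 samples in 18 groups (29 immunoprecipitates, 24 inputs) and tie each list to all replicates of a group, so each was treated as a pooled call. The submitters' processing notes name hg19 as the build, MACS2 2.1.2 and bedtools 2.25.0, and also Bowtie2 2.3.4, SAMtools 1.9 and FastQC 0.11.7, with roles and parameters not given in the sources used here. The values deposited per summit are a fold enrichment (a ratio of pileup to local background), p-values and q-values on a -log10 scale, a display score that follows the -log10 q, and the summit offset in bp. Coordinates are 1-based.

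Rows that overlapped or touched were merged per list, keeping the summit of highest -log10 q. Pileup and local background were solved together from the fold enrichment, with 1 added to both terms, and the p-value under a Poisson law. In each list 100% of pileups under 200 lay within 0.02 of a whole number, and the method was tested on simulated data. Overlap means at least 1 bp. A DMSO peak is kept where BPK-25 has an overlapping peak for that target, and a BPK-25 peak is new where DMSO has none. Ratios carry exact conditional intervals. Named sites were those within 2 kb of a gene start, with a TET peak, with a DMSO CTCF fold enrichment of 10 or more, or among the 5 of highest -log10 q in a CTCF or MBD3 list. Others named were chosen after their values were seen. Members, rules and comparisons were chosen with earlier results of these data known. Python 3.11.15, pandas 2.3.3 and SciPy 1.17.1 were used. Read totals per library were not used here.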

Additional observations from a re-analysis of the deposited data

How the results depend on the processing

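No paired analysis was possible because each list pools the replicates of a group, and no replicate could be left out. Peak numbers moved with the threshold. Where -log10 q reached 5, peaks per Mb were 59.5 for BPK-25 CTCF, 28.6 and 76.2 for DMSO and BPK-25 MBD3, 4.76 for DMSO TET3 and 0 for DMSO TET1, and the CTCF ratio of BPK-25 to DMSO peaks was 1.67. At 10 or more they were 16.7 for BPK-25 CTCF, 19.0 and 14.3 for MBD3, and 0 for DMSO TET1 and TET3. The ratios reversed, to 0.583 for CTCF and 0.750 for MBD3. The shares were then 8.33% of CTCF and 12.5% of MBD3 peaks kept, 100% of TET3 peaks new, and 42.9% of BPK-25 CTCF peaks with MBD3. At a fold enrichment of at least 10, peaks per Mb were 16.7 for DMSO CTCF, 2.38 for DMSO MBD3, 2.38 for BPK-25 TET3, and 0 for BPK-25 CTCF, BPK-25 MBD3, DMSO TET1 and DMSO TET3. Both ratios were 0, 0% of CTCF and MBD3 peaks were kept, 100% of TET3 peaks were new, and 14.3% of DMSO CTCF peaks had MBD3. With the same number of strongest peaks in both lists, peaks per Mb were 50 for BPK-25 CTCF, 42.9 for BPK-25 MBD3 and 0 for DMSO TET1. The ratios were 1.31 for CTCF and, reversed, 0.720 for MBD3, with 28.0% of MBD3 peaks kept and 61.1% new. With summits within 200 bp the median MBD3 ratio was 1.02 in place of 0.898, from 12 sites. Divided by the list's median, the local background was 1.12 for BPK-25 CTCF and 1.06 and 1.11 for DMSO and BPK-25 MBD3. The causes were not tested, beyond the fewer peaks that each threshold leaves. Of the ratios at single sites, 58 of 62 values kept their call. The settings that only change the summit, or leave out pairs with distant summits, mostly repeat the same ratio. They could hardly change a call, so this number is no measure of robustness. All changes came with fold enrichment, where 2 intervals came to exclude 1 and 2 came to include it. Among them, the MBD3 ratio at the MYC start was 0.574, with an interval below 1. The lowest pileup listed was between 8 and 11 fragments in the 10 lists, and nothing below it can be read.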
